A study of Homo sapiens with 6 samples.

Results

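The genes described here are 9 genes of endothelial tip cells and of the CXCL12-CXCR4 chemokine axis, read in HUVECs, endothelial cells of the human umbilical vein, after transfection of small interfering RNA (siRNA) that targets ANRIL, a long noncoding RNA of the CDKN2A and CDKN2B locus, or of scrambled siRNA as the control. They are CXCR4, CXCL12, ACKR3, ESM1, APLN, APLNR, PDGFB, CD34 and RGCC, 9 of the 19775 genes that the array reads with a probe set of their own. Every probe set annotated to exactly 1 of these symbols was taken, which gave 20 of 54613 probe sets. The genes were chosen by their known roles and by earlier log2 differences between these same arrays, so those differences are given as a description, without a test of each gene. There were 3 arrays with ANRIL siRNA and 3 with control siRNA, numbered as replicates 1 to 3 in each group, and all 6 came from HUVECs obtained commercially and grown in an endothelial medium containing serum, VEGF, FGF, EGF and IGF. The same transfection reagent was used in both groups, 1 siRNA duplex stood for ANRIL knockdown, and time after transfection is not given in the sources used here. The labels do not say whether the arrays came from separate donors or cultures, so the spread between them may be technical.

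Tip cells are the migrating endothelial cells at the front of a growing vessel sprout. The chemokine CXCL12 signals through the receptor CXCR4, which couples to inhibitory G proteins and is known to rise in tip cells, while ACKR3 (formerly CXCR7) binds CXCL12 without classical G protein signalling and removes it from the surroundings. ESM1 (endocan, a secreted proteoglycan), APLN (the peptide apelin), PDGFB (the growth factor that recruits pericytes) and CD34 (a surface sialomucin) are used as tip cell markers, and APLNR, the apelin receptor, is typical of the endothelial cells behind the tip. RGCC, listed in older annotation as C13orf15, encodes a regulator of the cell cycle that is also known as a hypoxia-induced, anti-angiogenic gene of endothelium.

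The siRNA duplex is shown because it is the only difference between the groups that the labels state. Capitals mark the 25 bases that pair, and the antisense strand has 2 further bases at its 3′ end.
ANRIL siRNA sense strand: GGAUAUGUGCCAUGAGUAAGAAUAA
ANRIL siRNA antisense strand: UUAUUCUUACUCAUGGCACAUAUCCau

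Promoter windows of 300 bases, 250 before and 50 after the gene start, were in the RefSeq table (GRCh38.p14) for 6 of the 9 genes, CXCR4 with 3 windows. The windows of the genes that differed most in each direction at their brightest probe set, CXCR4 and RGCC lower and CXCL12 higher, are shown, with ESM1 for its TATA box. Capitals mark matches on either strand. The GC box was searched as GGGCGG. The TATA box was searched as TATAAA, and the core of the hypoxia response element as ACGTG. The GCGTG form of that core was not searched, and it is left unmarked where it occurs, as in the RGCC and CXCR4 windows. The ETS core, as CCGGAA, and the forkhead motif, as GTAAACA, had no match in the 8 windows of these genes.
CXCR4, chr2:136118100-136118399, minus strand: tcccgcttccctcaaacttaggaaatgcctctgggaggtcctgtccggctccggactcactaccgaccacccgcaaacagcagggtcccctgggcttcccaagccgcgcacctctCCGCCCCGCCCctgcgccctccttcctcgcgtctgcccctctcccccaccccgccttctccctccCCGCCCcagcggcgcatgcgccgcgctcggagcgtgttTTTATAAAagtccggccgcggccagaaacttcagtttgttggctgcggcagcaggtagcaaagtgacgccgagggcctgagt
RGCC, chr13:41457300-41457599, plus strand: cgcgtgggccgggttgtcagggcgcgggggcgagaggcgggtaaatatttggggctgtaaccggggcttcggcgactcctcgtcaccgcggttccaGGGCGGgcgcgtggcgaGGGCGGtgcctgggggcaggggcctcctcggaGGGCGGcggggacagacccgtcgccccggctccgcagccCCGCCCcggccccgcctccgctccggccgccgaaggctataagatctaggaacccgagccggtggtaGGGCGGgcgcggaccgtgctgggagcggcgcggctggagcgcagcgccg
ESM1, chr5:54985544-54985843, minus strand: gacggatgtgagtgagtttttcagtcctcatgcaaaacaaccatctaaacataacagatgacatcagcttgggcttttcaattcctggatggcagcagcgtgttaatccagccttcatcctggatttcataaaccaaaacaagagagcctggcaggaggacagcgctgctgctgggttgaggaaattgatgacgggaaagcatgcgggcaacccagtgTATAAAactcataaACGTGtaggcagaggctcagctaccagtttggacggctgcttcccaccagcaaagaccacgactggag
CXCL12, chr10:44385048-44385347, minus strand: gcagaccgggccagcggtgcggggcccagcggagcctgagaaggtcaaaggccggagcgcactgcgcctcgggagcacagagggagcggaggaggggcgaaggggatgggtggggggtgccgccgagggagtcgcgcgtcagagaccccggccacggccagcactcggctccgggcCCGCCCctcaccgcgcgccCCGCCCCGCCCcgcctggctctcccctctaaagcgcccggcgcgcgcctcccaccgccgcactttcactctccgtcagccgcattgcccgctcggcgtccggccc

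The CXCR4 window shown held 3 GC boxes and 2 overlapping TATA matches, on opposite strands, the first of them starting 32 bases before the gene start. Of the CXCR4 windows not shown, chr2:136117820-136118119 had no match to any of the motifs. The other, chr2:136116186-136116485, had 2 GC boxes and no TATA match. The RGCC window held 5 GC boxes and the CXCL12 window 3, with 2 of the CXCL12 boxes sharing a base, as 2 of those of CXCR4 did. ESM1 held 1 TATA match, also starting at −32, and 1 hypoxia core of the ACGTG form at −18. Of the 35116 windows in the table, 45.0% held a GC box, 11.5% a TATA match and 21.4% the ACGTG form of the hypoxia core. The ETS core was in 17.2% and the forkhead motif in 3.42%, and APLN and CD34 had GC boxes as well. These are matches of letters, with nothing measured here on binding.

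The arrays agreed closely and differed by a small shift with signal. Over probe sets, the correlation was 0.997 to 0.998 between arrays of 1 group and 0.996 to 0.997 between arrays of different groups. Bright probe sets tended lower with ANRIL siRNA, and the median difference was −0.07 and −0.08 in deciles 9 and 10 of mean signal, the brightest, while dim ones tended higher (0.06 in decile 4). ANRIL itself (CDKN2B-AS1) had 1 probe set near the floor, at percentile 9.39, with log2 values of 3.69, 4.05 and 4.05 with ANRIL siRNA and 4.08, 4.05 and 3.95 with control siRNA, which gives no check of the knockdown. The 3′ minus 5′ signal of the ACTB control probe sets was 0.72 ± 0.13 with ANRIL siRNA and 0.54 ± 0.05 with control siRNA (SD, n = 3 each), with overlap. That of GAPDH was 0.05, 0.09 and 0.04 with ANRIL siRNA, against −0.01, 0.01 and −0.01 with control siRNA, without overlap. The part of RNA quality in the results below was not tested. All 7 endothelial markers, PECAM1 and CDH5 among them, lay above percentile 95. All 7 were below 0 (median −0.16), with a summed log2 signal of 14.99 to 15.10 with ANRIL siRNA and 15.16 to 15.27 with control siRNA. In decile 10, 12.9% of all probe sets were above 0, and after cyclic loess the median of these markers was −0.08. In cultures measured whole, fewer cells expressing a gene and less of its RNA per cell cannot be told apart.

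CXCR4 was lower with ANRIL siRNA at all 3 of its probe sets, and CXCL12, its ligand, was higher at both of its own. Values are RMA log2 intensities, and a difference is ANRIL siRNA minus control siRNA on that scale. The brightest CXCR4 probe set, 217028_at, read 9.37, 9.26 and 9.06 in ANRIL siRNA replicates 1 to 3, against 9.66, 10.04 and 9.53 in control siRNA replicates 1 to 3. The groups did not overlap, and control replicate 2 stood highest. CXCR4 differed by −0.52 ± 0.13 there (SE from limma, n = 3 arrays per group; 95% interval −0.80 to −0.24), which is 1.43-fold lower.

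The other CXCR4 probe sets gave the same picture with less spread. At 211919_s_at the values were 9.30, 9.24 and 9.18 with ANRIL siRNA, against 9.59, 9.74 and 9.55 with control siRNA, a difference of −0.39 ± 0.07 (1.31-fold lower). At 209201_x_at they were 8.80, 8.69 and 8.75 with ANRIL siRNA, against 9.10, 9.25 and 9.02 with control siRNA, a difference of −0.38 ± 0.08 (1.30-fold lower). Neither pair of groups overlapped, and control replicate 2 was again the highest array in both. Without that array the 3 differences were −0.37, −0.33 and −0.32. CXCR4 lay in decile 9 of signal, where 0.128%, 0.659% and 0.824% of probe sets had a difference as low as those of its 3 probe sets. In that decile 24.9% of all probe sets were lower without overlap. The members were chosen with these differences known, so such shares, here and below, only describe where a value lies and are no test. After cyclic loess normalization, which removes the shift with signal, the differences were −0.45, −0.32 and −0.32, and the groups still did not overlap.

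CXCL12 ran the other way. Its probe set 203666_at read 7.50, 7.63 and 7.66 with ANRIL siRNA, against 7.23, 7.26 and 7.40 with control siRNA. Every ANRIL siRNA array stood above every control array, and the difference was 0.30 ± 0.08 (95% interval 0.13 to 0.47), or 1.23-fold higher. At 209687_at the values were 7.35, 7.59 and 7.27 with ANRIL siRNA, against 6.92, 6.99 and 7.43 with control siRNA, a difference of 0.29 ± 0.13 (95% interval −0.01 to 0.59). Here the groups overlapped, since control replicate 3 stood above ANRIL siRNA replicates 1 and 3. Without that control the difference was 0.45, and without control replicate 1 it was 0.19. In decile 7, where CXCL12 lay, 0.806% and 1.03% of probe sets had a difference as high, and 13.2% were higher without overlap. After cyclic loess the differences were 0.30 and 0.28.

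ACKR3, the second receptor of CXCL12, was lower at 2 probe sets and higher at the third, its dimmest. At the brightest, 212977_at, the values were 9.12, 9.15 and 9.11 with ANRIL siRNA, against 9.34, 9.52 and 9.32 with control siRNA. The ANRIL siRNA arrays lay close together, below all controls, and the difference was −0.26 ± 0.07 (95% interval −0.43 to −0.10). The probe set 232746_at read 5.96, 5.80 and 5.72 with ANRIL siRNA, against 6.15, 6.07 and 6.06 with control siRNA, a difference of −0.27 ± 0.08. At 1559114_a_at the order turned, with 5.41, 5.41 and 5.30 with ANRIL siRNA, against 5.17, 4.95 and 5.11 with control siRNA, a difference of 0.29 ± 0.08. None of these 3 pairs of groups overlapped, so the probe sets of ACKR3 disagreed in direction, and which transcripts each probe set reads was not analysed here. Of all probe sets in deciles 9 and 5, where the 2 lower ones lay, 24.9% and 3.13% were lower without overlap. In those deciles 3.53% and 1.08% had a difference as low. In decile 4, where the third lay, 15.8% were higher without overlap and 2.82% had a difference as high. The mean over the 3 ACKR3 probe sets was −0.08. After cyclic loess the differences were −0.20, −0.33 and 0.23.

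**Figure D1:**
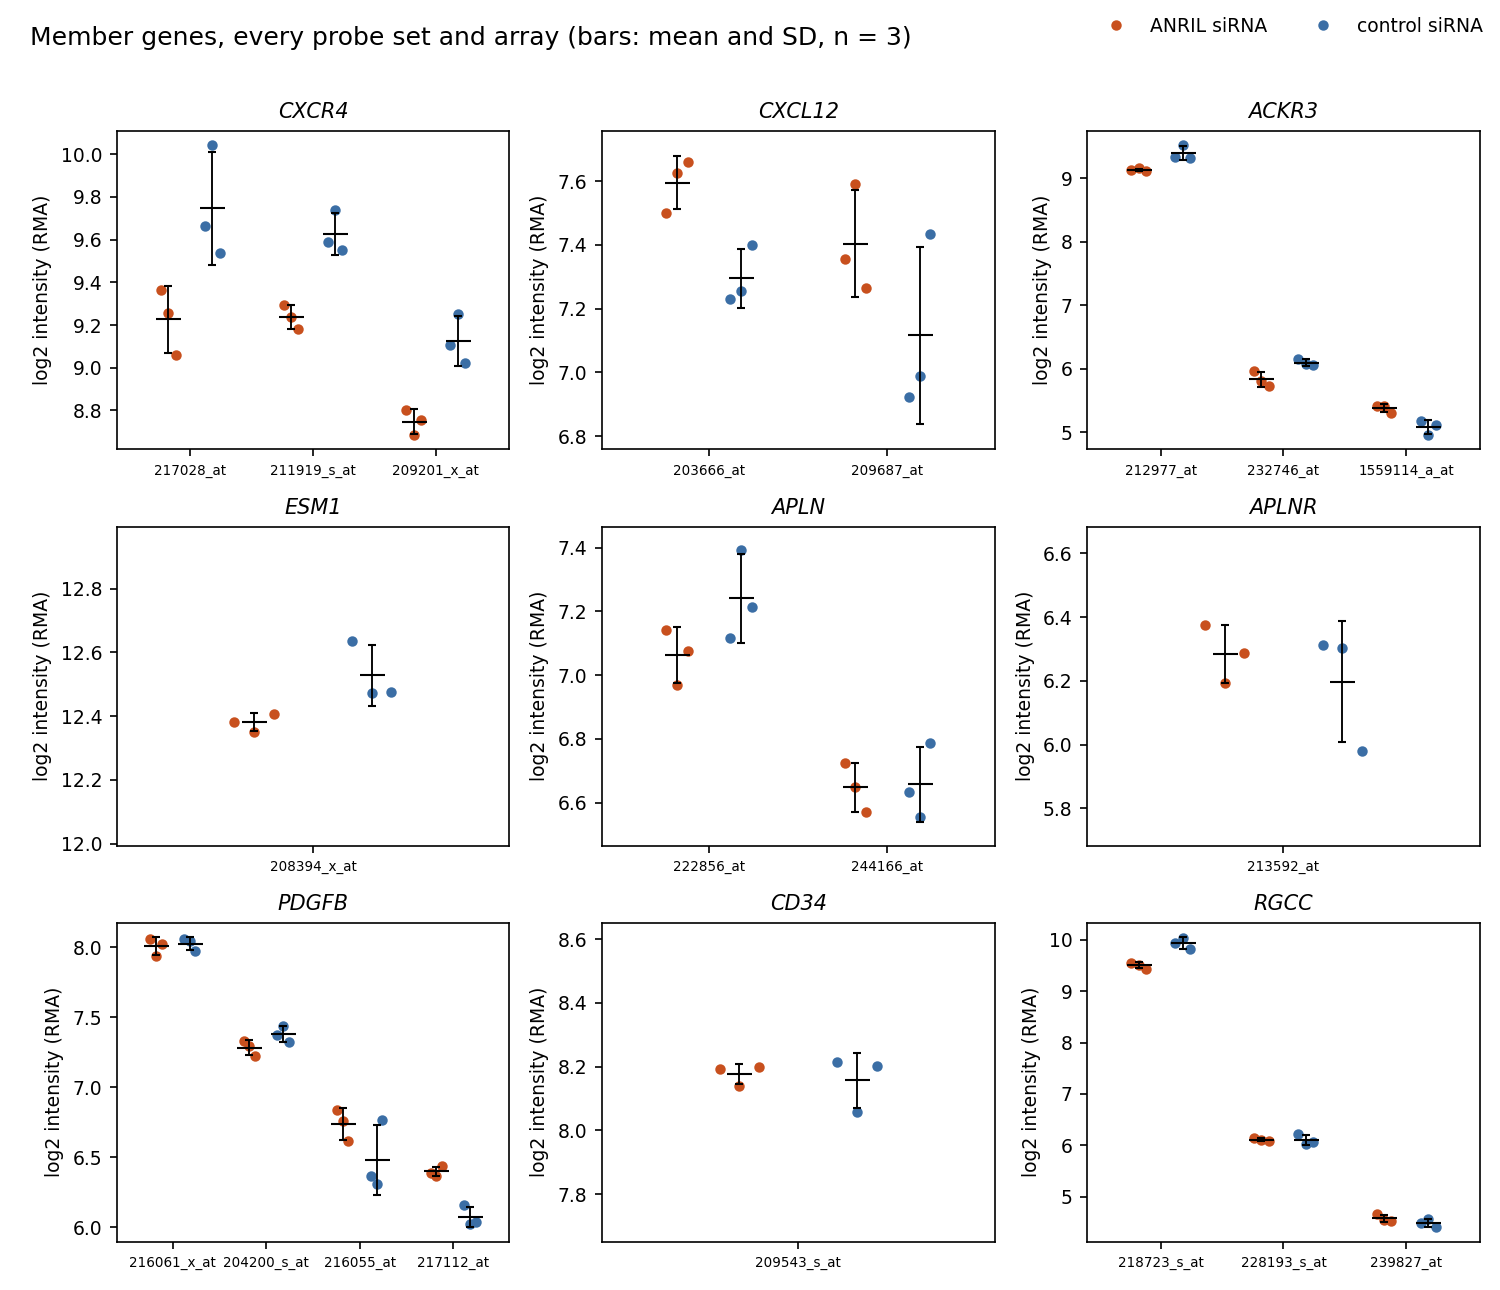
Log2 intensity (RMA) of every probe set of the 9 genes, with ANRIL siRNA arrays (orange, left) beside control siRNA arrays (blue, right); bars are the mean and SD of 3 arrays, each panel has its own scale, and heights of different probe sets are not comparable. All 3 CXCR4 probe sets and the brightest RGCC probe set lie lower with ANRIL siRNA without overlap, while CXCL12 203666_at lies higher.

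RGCC was lower at its brightest probe set only. At 218723_s_at the values were 9.55, 9.51 and 9.44 with ANRIL siRNA, against 9.94, 10.04 and 9.81 with control siRNA. All 3 ANRIL siRNA arrays lay below the lowest control, with a difference of −0.43 ± 0.08 (95% interval −0.60 to −0.26), 1.35-fold lower. In decile 9, 0.348% of probe sets had a difference as low, and 24.9% were lower without overlap. After cyclic loess the difference was −0.35. The probe set 228193_s_at read 6.15, 6.10 and 6.08 with ANRIL siRNA, against 6.22, 6.03 and 6.06 with control siRNA, a difference of 0.00 ± 0.07. The third, 239827_at, lay at percentile 19.6 and read 4.65, 4.55 and 4.52 with ANRIL siRNA, against 4.48, 4.56 and 4.41 with control siRNA, a difference of 0.10 ± 0.07. The groups overlapped at both of these dimmer probe sets, so the lower RGCC value rests on 1 of 3 probe sets.

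Among the secreted tip cell markers, ESM1 was slightly lower and the groups overlapped for APLN. ESM1, at percentile 98.5 of signal, read 12.38, 12.35 and 12.41 with ANRIL siRNA, against 12.64, 12.47 and 12.47 with control siRNA. The groups did not overlap, and the difference was −0.15 ± 0.07 (95% interval −0.30 to 0.01). Of the probe sets in decile 10, 18.4% had a difference as low, and 34.8% were lower without overlap. After cyclic loess the groups overlapped and the difference was −0.07, and without control replicate 1, the highest array, it was −0.09.

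Apelin is the peptide ligand of APLNR. APLN at 222856_at read 7.14, 6.97 and 7.07 with ANRIL siRNA, against 7.12, 7.39 and 7.21 with control siRNA, a difference of −0.18 ± 0.09 (95% interval −0.37 to 0.01). ANRIL siRNA replicate 1 lay just above control replicate 1, and after cyclic loess the groups no longer overlapped (−0.19). Without control replicate 2, the highest array, the difference was −0.10. At 244166_at the values were 6.72, 6.65 and 6.57 with ANRIL siRNA and 6.63, 6.55 and 6.79 with control siRNA, a difference of −0.01 ± 0.08. APLNR read 6.37, 6.19 and 6.29 with ANRIL siRNA and 6.31, 6.30 and 5.98 with control siRNA, a difference of 0.09 ± 0.10. Its groups overlapped, and its sign rested on control replicate 3, without which the difference was −0.02.

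PDGFB differed little at its brighter probe sets and was higher at its dimmer ones, without overlap only at the dimmest. At 216061_x_at the values were 8.06, 7.94 and 8.03 with ANRIL siRNA, against 8.06, 8.04 and 7.97 with control siRNA, a difference of −0.02 ± 0.07. At 204200_s_at they were 7.33, 7.30 and 7.22 with ANRIL siRNA, against 7.38, 7.44 and 7.33 with control siRNA, a difference of −0.10 ± 0.07. Both pairs overlapped, the second only at ANRIL siRNA replicate 1 and control replicate 3, which nearly coincided. At 216055_at the values were 6.83, 6.76 and 6.61 with ANRIL siRNA, against 6.37, 6.31 and 6.76 with control siRNA (0.26 ± 0.12). The groups overlapped there (95% interval −0.004 to 0.52), and without control replicate 3 or 2 the difference was 0.40 or 0.17. The dimmest, 217112_at, read 6.39, 6.37 and 6.44 with ANRIL siRNA, against 6.16, 6.03 and 6.04 with control siRNA, a difference of 0.33 ± 0.07 (95% interval 0.18 to 0.48) without overlap. In decile 6, where both dimmer probe sets lay, 3.75% and 0.897% of probe sets had a difference as high, and 14.6% were higher without overlap. Whether PDGFB differed little or was higher therefore depends on the probe set read.

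CD34 did not differ beyond the spread between arrays. It read 8.19, 8.14 and 8.20 with ANRIL siRNA, against 8.21, 8.06 and 8.20 with control siRNA. The groups overlapped almost fully, with a difference of 0.02 ± 0.07 (95% interval −0.13 to 0.17). The interval leaves out a change in CD34 signal as large as that of CXCR4 or RGCC at their brightest probe sets.

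**Figure D2:**
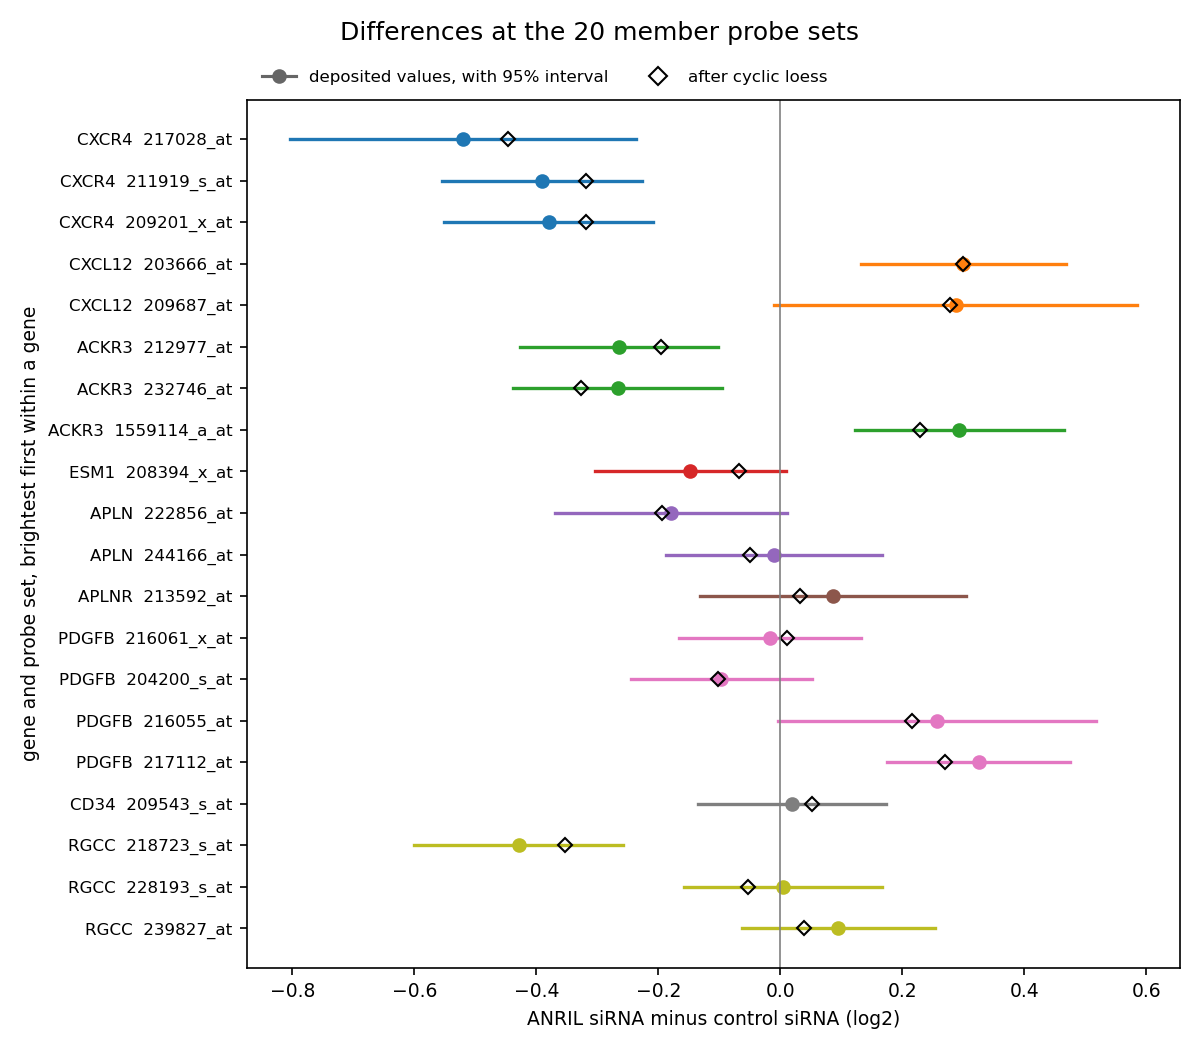
Difference between ANRIL siRNA and control siRNA (log2) at each of the 20 probe sets, brightest first within a gene; filled circles and lines are the deposited values with their 95% interval, open diamonds the value after cyclic loess. The intervals of all 3 CXCR4 probe sets and of RGCC 218723_s_at lie below 0, and those of ACKR3 lie on both sides.

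Of the 20 probe sets 11 were below 0 and 9 above, with a median of −0.01, beside a median of 0.01 over all 54613. The groups did not overlap at 7 probe sets that were lower, where 9.97% of all probe sets were lower without overlap, and at 3 that were higher, where the share was 11.0%. After cyclic loess these counts were 8 and 3, beside 8.98% of all probe sets in each direction. With each gene at its brightest probe set, 6 of 9 were below 0 (median −0.15). After cyclic loess, or after repeated quantile normalization, 5 of 9 were (median −0.07 in each). Over all genes on the deposited values, 10154 of 19775 were below 0 (median 0.00). Those genes are not matched in signal to the 9 members. The limma fit with a constant prior and Benjamini-Hochberg adjustment called 0 of 54613 probe sets (0.00%), members included, beside 8246 at an unadjusted p under 0.05. With an intensity-trended robust prior it called 344 probe sets (0.630%), 0.577% of all being called lower, and 3 of the 20 were among them, all lower: CXCR4 211919_s_at, CXCR4 209201_x_at and RGCC 218723_s_at. After cyclic loess that prior called 2 of the 20, the first and last of these, beside 0.143% of all. Since the genes were listed with this contrast known, nothing is read from these shares.

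Control replicate 2 was the highest control array at 5 of the 7 probe sets that were lower without overlap, namely those of CXCR4, ACKR3 212977_at and RGCC 218723_s_at. Over all probe sets that were lower without overlap, control replicate 2 was the highest in 56.2%. The medians of the 6 arrays ran from 6.14, in control replicate 2, to 6.23. Without control replicate 2 the 7 differences lay between −0.37 and −0.18.

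**Figure D3:**
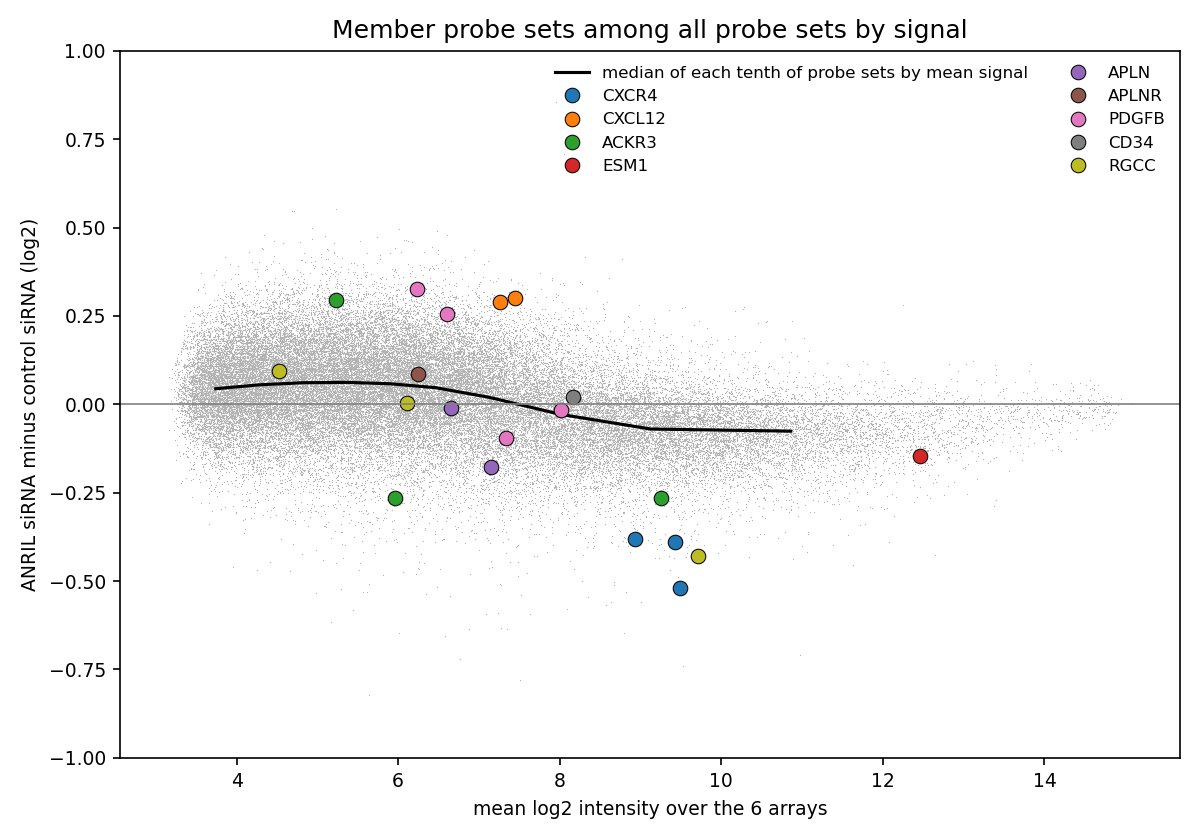
Difference between ANRIL siRNA and control siRNA (log2) against mean log2 intensity for all probe sets (grey) and the 20 member probe sets (coloured by gene); the black line joins the medians of the deciles of signal. CXCR4 and the brightest RGCC probe set lie below the line at their signal, CXCL12 above it, and ESM1 and CD34 close to it.

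Genes whose profile over the 6 arrays lay nearest to that of a member were found by the root mean square distance between log2 values, each centred on its own mean, among 9880 genes above the median signal. For CXCR4 these were TNFSF10, the death ligand TRAIL (distance 0.08, difference −0.63 ± 0.10), ADAMTS18, a secreted metalloproteinase (0.10, −0.47 ± 0.09), and KIT, the receptor of stem cell factor (0.11, −0.59 ± 0.16). CXCR4 itself had an SD of 0.34 over the 6 arrays. For RGCC they were CHST15, a chondroitin sulfate sulfotransferase (0.03, −0.39 ± 0.07), LYVE1, a hyaluronan receptor (0.04, −0.43 ± 0.07), and CCL2, a monocyte chemokine (0.04, −0.42 ± 0.08). For ESM1 they were DDX59, ELL2 and WDR11 at distances of 0.02 to 0.03, and for APLN they were PMCH, CYRIA and BCL6B at 0.03 to 0.04. The distance is a description of 6 arrays and says nothing of shared function.

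Other genes of the same pathways were taken from lists of known partners and markers. Each is given at its brightest probe set only, and further probe sets, where a gene has them, are not given here. NRP2 has 11 probe sets, ITCH 6, NRP1 and GRK6 4 each, and KCNE3 3. Probe sets of a gene can disagree, as those of ACKR3 and PDGFB did. Of 65 measured genes 45 were below 0, with a median of −0.09, and 0 passed the constant-prior fit over all genes (0.00% of 19775 genes, 3557 at an unadjusted p under 0.05). The groups did not overlap for 26 that were lower, beside 12.8% of all genes, and for 3 that were higher, beside 10.6%. With the intensity-trended prior 11 of the 65 were called lower and 1 higher, beside 2.74% of all genes called and 2.15% called lower. Of all probe sets in deciles 9 and 10 of signal, 24.9% and 34.8% were lower without overlap. Of the 65, 6 lay below percentile 50 of signal, and the shares over all genes are not matched to signal. After cyclic loess the median of the 65 was −0.02. The intensity-trended prior then called 7 of them, 5 lower, beside 0.678% of all genes. The lists were made with earlier results of this contrast known, so nothing is read from these shares, here and in the lists below.

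The partners of CXCR4 and ACKR3 were divided. Of 23 measured, 13 were below 0 (median −0.03). The groups did not overlap for 6 that were lower and 2 that were higher, beside 12.8% and 10.6% of all genes. CXCL11, an interferon-induced chemokine that also binds ACKR3, had the largest difference of the list, at 5.54, 5.13 and 5.01 with ANRIL siRNA, against 5.74, 6.35 and 6.05 with control siRNA (−0.82 ± 0.16). This probe set, the brighter of 2 for CXCL11, lay at percentile 40.0 of signal, and the other is not given here. The inhibitory G protein genes GNAI2 (−0.24 ± 0.07), GNAI1 (−0.18 ± 0.06) and GNAI3 (−0.05 ± 0.06) were lower too, as were SDC4, a heparan sulfate proteoglycan that binds CXCL12 (−0.17 ± 0.06), and MIF, another CXCR4 ligand (−0.06 ± 0.06). After cyclic loess GNAI3 and MIF stood at 0.03 and 0.01, and MIF stood at −0.03 after repeated quantile normalization. ITCH, the ubiquitin ligase that sorts CXCR4 for degradation (0.17 ± 0.06), and GRK6, a kinase that phosphorylates its tail (0.17 ± 0.07), were higher without overlap. With the intensity-trended prior 2 of the 23 were called, CXCL11 and GNAI2, both lower, beside 2.15% of all genes called lower. After cyclic loess that prior called CXCL11, lower, and ITCH, higher, beside 0.678% of all genes. GNAI2 (−0.15) was no longer called. DPP4, which cleaves CXCL12 (0.13 ± 0.08), and CD74, a receptor of MIF that pairs with CXCR4 (0.12 ± 0.09), overlapped between the groups.

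Apelin processing and PDGF signalling showed no separation of the groups. Of 3 measured genes of the apelin list, the largest differences were those of APELA, a second ligand of APLNR read near the floor at percentile 5.52 (−0.06 ± 0.09), and FURIN, a proprotein convertase (−0.05 ± 0.07). Among 5 PDGF genes, those of the receptors PDGFRA (−0.09 ± 0.08) and PDGFRB (0.07 ± 0.08), which mark stromal and mural cells, were the largest. In the sialomucin family of CD34, PODXL (−0.10 ± 0.06) and EMCN (−0.06 ± 0.06) were lower without overlap, and after cyclic loess they stood at −0.02 and 0.02. PODXL2, the dimmest of the 3, overlapped (−0.17 ± 0.10). Of the RGCC partners, CCNB1, the mitotic cyclin B1, was lower without overlap (−0.17 ± 0.06), while its kinase CDK1 (0.04 ± 0.08) and PLK1 (0.01 ± 0.07) overlapped.

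Of 21 other genes known from tip cells, chiefly from mouse retina, 17 were below 0 (median −0.11). The groups did not overlap for 12 that were lower and 1 that was higher, beside 12.8% and 10.6% of all genes. The lower ones were led by the VEGF co-receptors NRP2 (−0.44 ± 0.06) and NRP1 (−0.27 ± 0.07), FSCN1, the actin-bundling protein of filopodia (−0.32 ± 0.07), PLAUR, the urokinase receptor (−0.23 ± 0.07), and the basement membrane genes COL4A2 (−0.20 ± 0.07), NID2 (−0.19 ± 0.07) and LAMA4 (−0.15 ± 0.06). After cyclic loess the list median was −0.04, with PLAUR at −0.15, COL4A2 at −0.12, NID2 at −0.11 and LAMA4 at −0.07. MCAM (−0.15 ± 0.06), PLXND1 (−0.11 ± 0.06), EFNB2 (−0.11 ± 0.06), KDR (−0.10 ± 0.06) and INSR (−0.06 ± 0.06) were lower by less, and after cyclic loess these 5 lay between −0.07 and −0.01. KCNE3, a potassium channel subunit, was the one higher without overlap, at 7.32, 7.37 and 7.24 with ANRIL siRNA, against 7.01, 6.84 and 6.86 with control siRNA (0.40 ± 0.07). With the intensity-trended prior 5 of the 21 were called lower, beside 2.15% of all genes, and KCNE3 higher. After cyclic loess with that prior 3 were called, where 0.678% of all genes were: NRP2, FSCN1 and KCNE3.

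Of 8 genes known from stalk and phalanx endothelium, 6 were below 0 (median −0.15). The groups did not overlap for 5 that were lower, beside 12.8% of all genes: TIE1 (−0.42 ± 0.06), ROBO4 (−0.23 ± 0.06), the Notch target HES1 (−0.22 ± 0.07), TEK (−0.19 ± 0.06) and FLT1 (−0.09 ± 0.06). All 5 lay in decile 10 of signal, where 34.8% of all probe sets were lower without overlap. After cyclic loess the list median was −0.07, with TIE1 at −0.34, ROBO4 at −0.15, HES1 at −0.14, TEK at −0.11 and FLT1 at −0.0048 (0.0084 after repeated quantile normalization). The intensity-trended prior called the first 4 of these before cyclic loess, where it called 2.15% of all genes lower. After cyclic loess it called TIE1 and ROBO4, beside 0.678% of all genes. The Notch ligand JAG1 (0.06 ± 0.06) and the Notch target HEY1 (0.21 ± 0.10) overlapped between the groups. DLL4, the Notch ligand of tip cells, read 7.09, 7.06 and 7.17 with ANRIL siRNA and 7.20, 6.88 and 7.15 with control siRNA (0.03 ± 0.09). The lists of tip and stalk genes were not tested against each other.

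**Figure D4:**
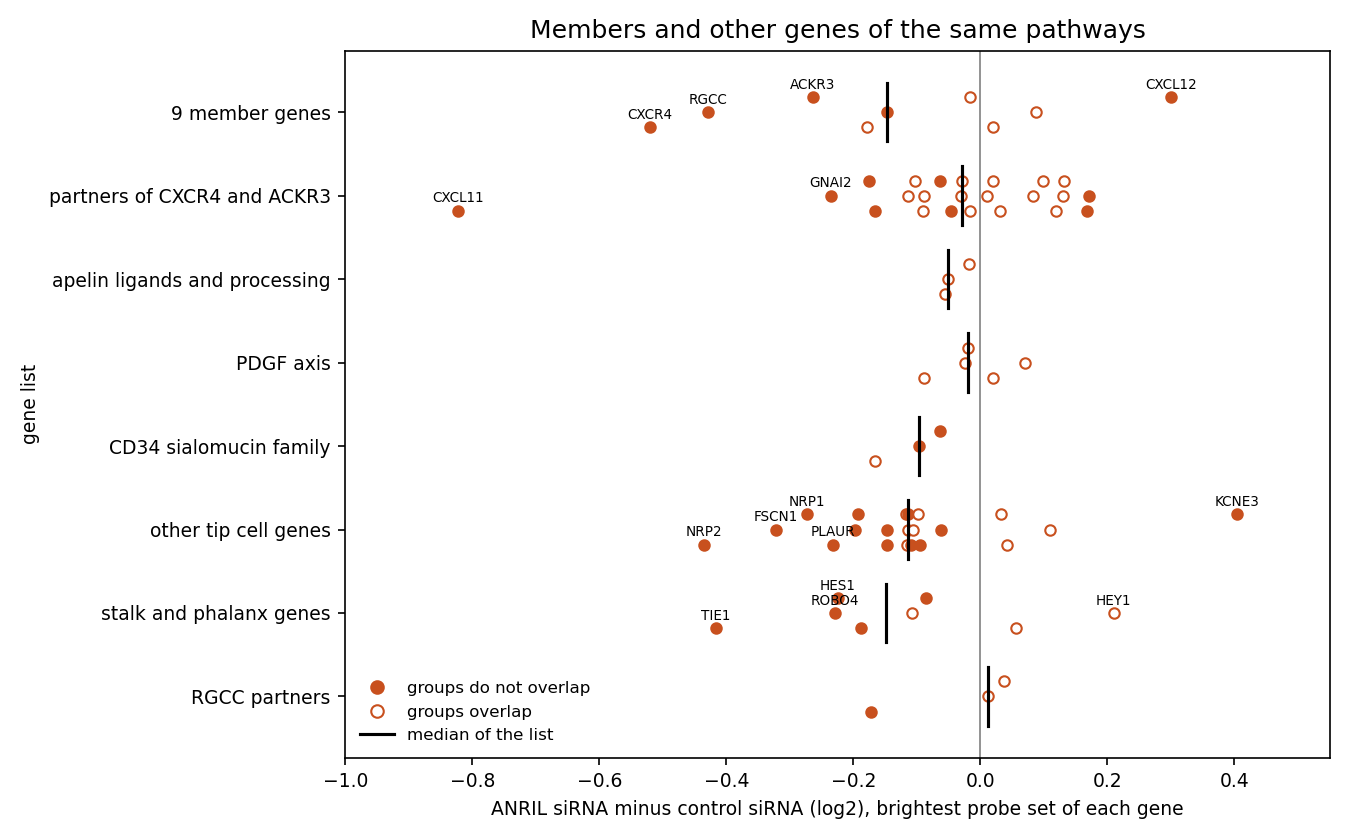
Difference between ANRIL siRNA and control siRNA (log2) at the brightest probe set of each of the 9 genes and of each gene in the pathway lists; filled circles are genes whose groups do not overlap, and black bars are list medians. CXCL11 lies lowest at −0.82, KCNE3 highest at 0.40, and the list medians lie between −0.15 and 0.01.

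Markers of other cells that express CXCL12, CXCR4, PDGFB receptors or CD34 were read beside these results. Fibroblast and mural markers were below 0 at 5 of 8 (median −0.04), with a summed log2 signal of 13.92 to 13.96 with ANRIL siRNA and 13.97 to 13.99 with control siRNA, a sum that RGS5, which endothelial cells can express, dominates at log2 13.7. ACTA2 (−0.26 ± 0.06, percentile 92.9) and COL3A1 (−0.18 ± 0.06, percentile 29.4) were lower without overlap, as was RGS5. COL1A1 (0.15 ± 0.07, percentile 87.8), DCN at percentile 63.3, PDGFRB at 49.2, CSPG4 at 34.8 and LUM at 3.52 overlapped. Leukocyte and blood progenitor markers were below 0 at 2 of 7 (median 0.06), with summed signals of 9.29 to 9.48 with ANRIL siRNA and 9.37 to 9.53 with control siRNA. KIT, a progenitor marker that followed CXCR4 above, had the largest difference among them (percentile 71.2). CD3E, a T cell receptor subunit gene, was higher without overlap (0.22 ± 0.08, percentile 71.6). GATA1 at percentile 65.3, MPO at 39.0, CD14 at 31.5, SPI1 at 19.4 and the leukocyte antigen gene PTPRC at 14.7 overlapped. The part of other cells in the CXCL12 and CXCR4 differences was not tested. Lymphatic markers were below 0 at 2 of 3 (median −0.14), with sums of 9.85 to 9.89 with ANRIL siRNA and 10.16 to 10.30 with control siRNA. LYVE1 (−0.43 ± 0.07) dominates that sum, and the groups overlapped for PROX1 (−0.14 ± 0.07) and PDPN (0.09 ± 0.11). Proliferation markers were below 0 at 2 of 3 (median −0.12), with sums of 8.83 to 8.86 with ANRIL siRNA and 8.89 to 9.01 with control siRNA. CCNB1, the brightest of the 3, was lower without overlap (−0.17 ± 0.06). The groups overlapped for TOP2A (−0.12 ± 0.09) and for MKI67, which was above 0 (0.06 ± 0.08).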

How the data were processed

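RNA from 3 HUVEC samples per siRNA was hybridised to Affymetrix Human Genome U133 Plus 2.0 arrays. The deposited table holds log2 intensities of 54675 probe sets, and per the submitters' processing notes RMA, affy and limma were used (versions not given in the sources used here). The RMA method corrects background, quantile-normalizes across arrays and summarises each probe set on the log2 scale. From these, 62 control probe sets were left out. Names came from the platform annotation, updated through Entrez identifiers to RefSeq symbols (GRCh38.p14). Of 54613 probe sets 41091 had 1 symbol, of which 41037 matched RefSeq, 1801 had several and 11721 were not listed. A gene was represented by its probe set of highest mean.

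All differences were fitted over the whole table by limma 3.58.1 (lmFit, eBayes; R 4.3.3) with a prior constant over signal, Benjamini-Hochberg adjustment and a threshold of 0.05. Probe sets ending in _s_at or _x_at can read more than 1 transcript. The fit was also run on simulated data with independent noise and no shift with signal. These arrays do hold such a shift, so that run cannot vouch for the calls here. The members and lists were chosen with earlier results of these data known. The text names the 9 members, the pathway list genes without overlap between groups or else the 2 of largest difference per list, markers of other cells, and 3 nearest genes for 4 members. Other pathway genes named, PODXL2, DPP4, CD74, CDK1, PLK1, JAG1, HEY1 and DLL4, were chosen after their values were seen. Of 68 listed pathway genes 65 were measured. Alternatives were the replicate number as a block, other priors, weights, scalings, filters and probe set rules, and each array left out in turn. The 6 arrays limit the precision.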

Additional observations from a re-analysis of the deposited data

How the results depend on the processing

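All 3 CXCR4 probe sets, both of CXCL12, all 3 of ACKR3, ESM1, APLN 222856_at, RGCC 218723_s_at and 239827_at, and PDGFB 204200_s_at, 216055_at and 217112_at kept their sign under every array setting run for them. The differences near 0, at PDGFB 216061_x_at, CD34, APLNR, APLN 244166_at and RGCC 228193_s_at, turned under 1 or more. As the mean of all probe sets PDGFB was at 0.12, RGCC at −0.11 and ACKR3 at −0.08. With _s_at and _x_at probe sets left out PDGFB was at 0.26 and RGCC at 0.10, and 3 of 7 member genes lay below 0. With the intensity-trended robust prior 344 probe sets, 541 genes, 3 member probe sets and 12 pathway genes were called. With that prior after cyclic loess the counts were 78, 134, 2 (CXCR4 211919_s_at and RGCC 218723_s_at) and 7. With median centring 4 probe sets, 32 genes and 3 pathway genes were called, and above the median signal 1, 32 and 3, with 0 member probe sets in both. Leaving out each array with the trended prior, an alternative chosen after seeing the data, gave 4 to 885 probe sets, 40 to 1468 genes, 0 to 5 member probe sets and 4 to 17 pathway genes. Member calls were 0 without control replicate 2, 1 without ANRIL siRNA replicate 1 or 3 or control replicate 1, and 5 without control replicate 3. With the constant prior and an array left out, 0 were called and 5 to 7 of 9 members lay below 0. With array weights, repeated quantile normalization or an adjusted p under 0.1, 0 were called too. Same-numbered arrays of the groups deviated with correlations of 0.06, 0.14 and −0.04, so the numbers were not taken as pairs. With the replicate block 0 probe sets, 0 genes, 0 member probe sets and 0 pathway genes were called and 6 of 9 members lay below 0. The dimmest probe sets limit what can be said of RGCC, ACKR3 and APELA.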
